A study of Homo sapiens with 6 samples.

Results

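Polyamine metabolism was examined through 10 genes in ribosome profiles of K562, an erythroid-like line from a human chronic myelogenous leukemia. The genes were selected by symbol as those that make polyamines (ODC1, AMD1, SRM, SMS), control the first synthetic enzyme (OAZ1, OAZ2, AZIN1) or break polyamines down (SAT1, SMOX, PAOX), and all 10 were among the 19330 genes of the count table. Cells had received Cas9 and a guide RNA from the lentiviral vector pLentiCRISPRv2, were selected with puromycin and were analysed 10 days post infection. In sgN6AMT1 the guide targeted N6AMT1, and in sgCtrl the guides targeted the olfactory receptor genes OR11A1 and OR2M49, as the labels spell them. Each group had 3 libraries, which the study describes as independent transductions of selected cells and which carried between 1821356 and 2969736 footprints. The guide in each library was not given in the sources used here. N6AMT1 is a methyltransferase with several reported substrates, among them the release factor eRF1, which ends translation at stop codons.

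Polyamines are small cations that bind nucleic acids and are needed for growth. Ornithine decarboxylase (ODC1) makes putrescine. S-adenosylmethionine decarboxylase (AMD1) makes the aminopropyl donor with which spermidine synthase (SRM) and then spermine synthase (SMS) extend it. Antizymes (OAZ1, OAZ2) bind ODC1 and hand it to the proteasome, and the antizyme inhibitor AZIN1 binds antizyme in turn. SAT1 acetylates spermidine and spermine for export or for oxidation by PAOX, and SMOX oxidizes spermine directly. Several of these mRNAs sense polyamines while they are translated. Ribosomes reach the second frame of an antizyme mRNA by slipping forward at a stop codon, and ribosomes ending a short upstream ORF of AMD1 stall when polyamines are abundant.

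The sequences on which these controls act are shown first, because each one ends in or contains a stop codon. They were read from GRCh38 at the positions of the listed transcripts, and capitals mark the stop codon. In OAZ1 (chr19:2271431-2271457, plus strand) and OAZ2 (chr15:64691501-64691527, minus strand), the annotation skips the T of this stop codon and resumes in the next frame. The first frame had 68 codons in OAZ1 and 32 in OAZ2, and the second 160 and 157. The 27-base windows were identical at 26 positions and differed at G2T, counted from the 5′ end with the OAZ1 base first.
OAZ1: cggtggtgctccTGAtgcccctcaccc
OAZ2: ctgtggtgctccTGAtgcccctcaccc
The upstream ORF of AMD1 (chr6:110874796-110874816, plus strand) had 6 codons and began at base 12 of a leader of 321 bases. That of SAT1 (chrX:23783235-23783249, plus strand) had 4 codons and ended 102 bases before the main start codon.
AMD1 upstream ORF: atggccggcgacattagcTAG
SAT1 upstream ORF: atggtgccagccTGA
The main stop codons of AMD1 (chr6:110893602-110893628) and SMS (chrX:21994337-21994363), both on the plus strand, are given as examples of TGA. SRM, SAT1 and SMOX also end in TGA and are not printed. AMD1 was called higher and SMS lower, and an effect of the stop codon was not tested.
AMD1 main stop: caacagcagagtTGAttaagaaaaatg
SMS main stop: aaagctaaacccTGAagatcagtagcc

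**Figure D1:**
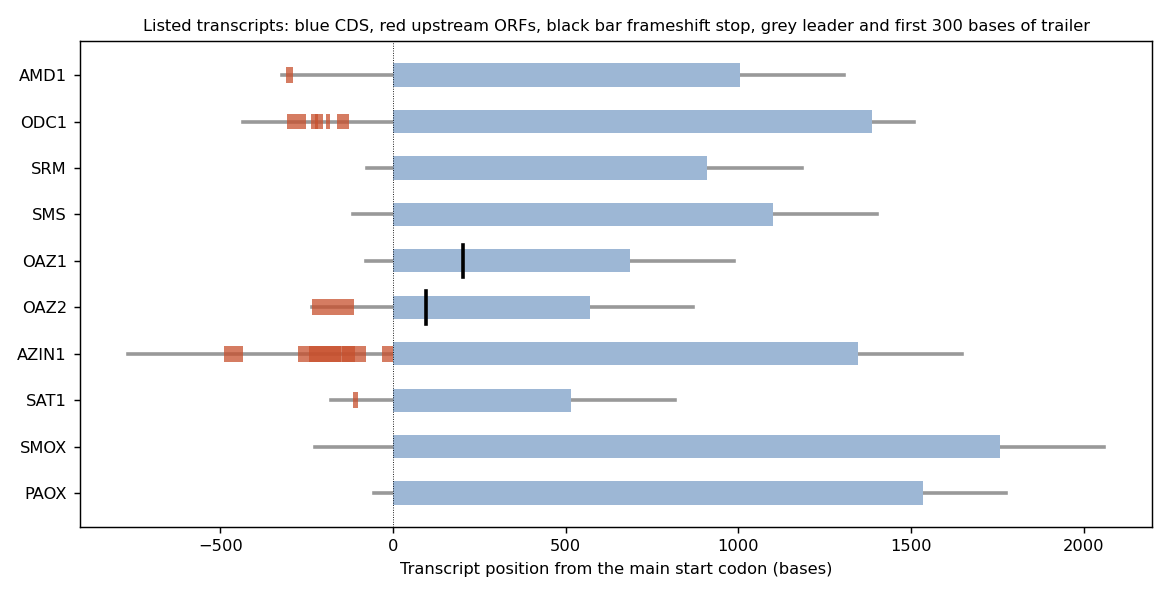
Transcript position in bases from the main start codon (x) for the listed transcript of each polyamine gene (y). Blue bars are coding sequences, red bars upstream ORFs that start at ATG and stop inside the leader, black bars the antizyme frameshift stops, and grey lines the leader and the start of the trailer. Upstream ORFs lie in AMD1, ODC1, OAZ2, AZIN1 and SAT1, and the frameshift stops lie 204 bases into OAZ1 and 96 bases into OAZ2.

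An ATG-started ORF contained in the leader was found in 5 of the 10 polyamine transcripts, namely AMD1 and SAT1 with 1 each, OAZ2 with 1, and ODC1 and AZIN1 with 5 each. Of 8597 tested genes with an annotated leader, 32.7% held one. The ORF of OAZ2 began at base 1 of its annotated leader. SMS had 1 ATG in its leader with no stop in frame there, and was counted as without an upstream ORF. SAT1 and OAZ2 each had 2 ATGs in the leader for their 1 upstream ORF. In SAT1 the other ATG does not start the printed ORF and has no stop in frame in the leader. The leader in use in these cells was not determined. The table gives 1 count per gene and no positions, and whether footprints outside the coding sequence are in it is not given in the sources used here. Footprints in the first and the second antizyme frame or at a stop codon could not be told apart, and upstream ORFs have no value of their own.

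The targeted gene was lower in every sgN6AMT1 library. Its listed transcript, ENST00000460212.1, is annotated as a nonsense-mediated decay transcript and not as protein-coding, so these counts need not follow the protein. N6AMT1 was covered by 25, 24 and 34 footprints in sgCtrl against 10, 9 and 8 in sgN6AMT1, with a log2 fold change of -1.51 and an SE of 0.31 (adjusted p 6.69e-05 in edgeR). It reached the minimum of the filter on low counts in sgCtrl only, so it entered the test because it was high in that group. Pairs of libraries within a group differed by more than sampling noise (chi-square per degree of freedom 1.25 to 1.68) and less than pairs across groups (4.89 to 7.04). All 10 erythroid markers listed for K562 were detected, with 3 called higher and 4 called lower. These 7 of 10 are as many as among the polyamine genes, against 26.9% of all tested genes. Of 8 markers of other cell types, MS4A1 was at 0 in every library. Their summed level was 221 to 253 CPM (a gene's footprints scaled to the adjusted library total) in sgCtrl and 284 to 318 CPM in sgN6AMT1, and without LYZ it was 171 to 201 and 185 to 209 CPM. Most of this sum came from EPCAM, an epithelial adhesion protein, at 161 to 188 CPM in sgCtrl and 174 to 195 CPM in sgN6AMT1, a gene that did not pass the test. Besides EPCAM and LYZ, no marker was above 9.88 CPM in any library. LYZ, a myeloid lysozyme, rose by a log2 fold change of 0.90 (edgeR adjusted p 2.45e-11), and its part in the polyamine results was not tested.

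Upon N6AMT1 depletion, ribosome footprints rose on AMD1, ODC1, both antizymes, SAT1 and SMOX, and fell on SMS. SRM, AZIN1 and PAOX did not pass the test. Thus 6 of the 10 genes were higher and 1 was lower past an adjusted p of 0.05 in edgeR's quasi-likelihood test, against 12.9% and 13.9% of the 9202 tested genes. In either direction this was 7 of 10 against a background of 26.9%. Values of the groups did not overlap for 8 of the 10, against 37.5% of tested genes. The median log2 fold change was 0.26 for the 10 genes and 0.0063 for all tested genes. All 10 passed the filter on low counts, but SAT1 and SMOX reached its minimum in all libraries of sgN6AMT1 only and PAOX in all libraries of sgCtrl only, so these 3 entered the test because they were high in 1 group. Of the 7 that reached the minimum in both groups, 5 were called, 5 did not overlap, and the median log2 fold change was 0.19. The 5 called include ODC1, which passed the threshold in 10 of 15 alternative fits and not in DESeq2. The 10 genes together held 0.0784% to 0.0796% of all footprints in sgCtrl and 0.0885% to 0.0908% in sgN6AMT1. These shares are of unadjusted totals, and the genes with the highest counts (ODC1, SMS, OAZ1 and SRM) weigh most in them. Footprint counts depend on the amount of each mRNA as well as on its translation, and RNA-seq was not used here. Fewer cells of a type and less RNA per cell cannot be told apart either, and p-values measure the spread between these libraries.

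**Figure D2:**
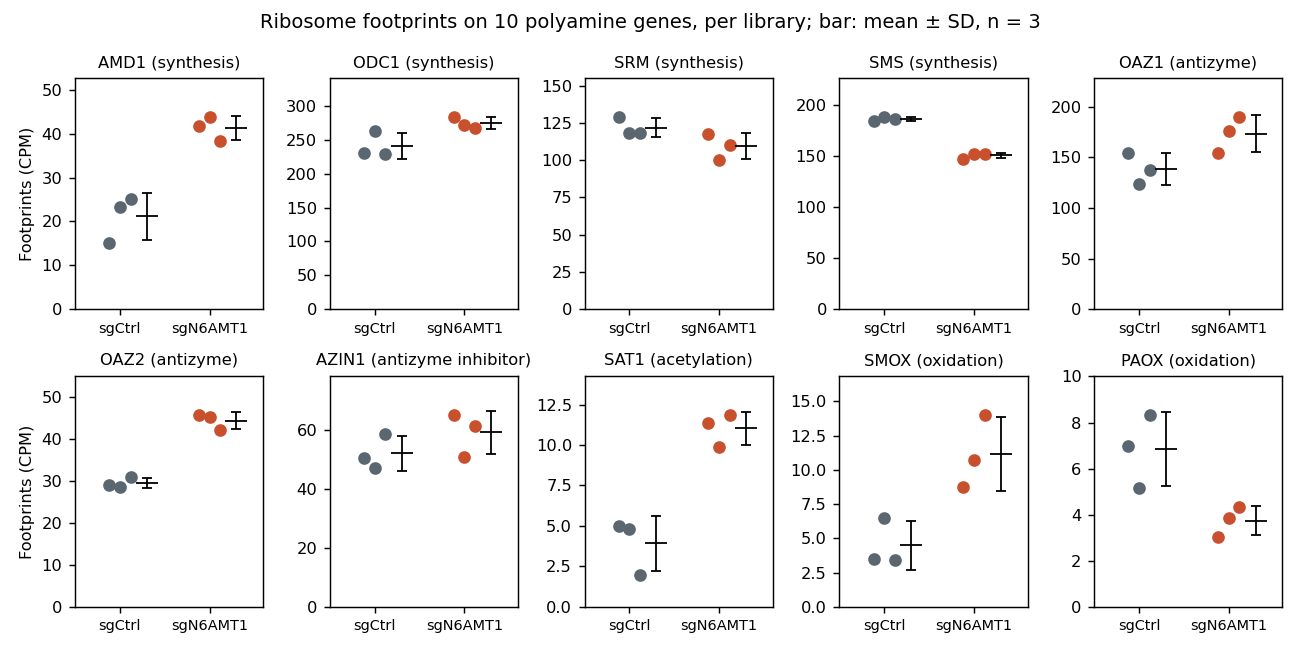
Footprints in CPM (y, each panel from 0) on each polyamine gene in the 3 sgCtrl and 3 sgN6AMT1 libraries (points), with mean ± SD beside them. The sgN6AMT1 points lie above all sgCtrl points for AMD1, ODC1, OAZ2, SAT1 and SMOX and below them for SMS, SRM and PAOX, and they overlap for OAZ1 and AZIN1.

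Among the synthetic enzymes, AMD1 changed most. AMD1 (ENST00000368885.7, chromosome 6, 110874785 to 110895713, 9 exons) was covered by 30, 68 and 51 footprints in sgCtrl against 96, 102 and 71 in sgN6AMT1. In CPM these were 15.0, 23.4 and 25.0 against 41.9, 43.8 and 38.4. Every sgN6AMT1 library was above every sgCtrl library, and sgCtrl replicate 1 was the lowest. The mean went from 21.1 ± 5.37 to 41.4 ± 2.78 CPM (SD, n = 3 each), which is a log2 fold change of 0.96 with an SE of 0.15 (adjusted p 3.55e-07 in edgeR). Only 2.59% of tested genes had a larger log2 fold change.

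ODC1, the enzyme that antizyme controls, rose much less. ODC1 (ENST00000405333.5, chromosome 2, 10440601 to 10447780, 12 exons) was covered by 461, 766 and 467 footprints in sgCtrl against 652, 635 and 497 in sgN6AMT1, or 231, 263 and 229 against 284, 273 and 268 CPM. The sgN6AMT1 values lay just above those of sgCtrl, of which replicate 2 came closest. The log2 fold change was 0.19 with an SE of 0.065 (adjusted p 0.0226 in edgeR). This call was lost in DESeq2 (adjusted p 0.166) and without sgCtrl replicate 1 or 3 (0.111 and 0.127) or sgN6AMT1 replicate 1 or 2 (0.0853 and 0.0662), with the log2 fold change between 0.14 and 0.26 over 15 alternatives.

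The synthases that use the AMD1 product went the other way or did not pass. SMS (ENST00000404933.6, chromosome X, 21940709 to 21994837, 11 exons) was covered by 369, 550 and 381 footprints in sgCtrl against 339, 355 and 282 in sgN6AMT1. Its CPM were 185, 189 and 187 against 148, 153 and 152, with little spread in either group and no overlap. SMS fell by 0.31 in log2 units with an SE of 0.073 (adjusted p 0.000577 in edgeR). SRM (ENST00000376957.6, chromosome 1, 11054589 to 11060018, 8 exons) was covered by 258, 344 and 241 footprints in sgCtrl against 270, 233 and 204 in sgN6AMT1. In CPM these were 129.1, 118.1 and 118.3 against 117.7, 100.1 and 110.2. The groups of SRM touched without overlapping, and the log2 fold change of -0.15 (SE 0.088, 95% interval -0.32 to 0.02) did not pass (edgeR adjusted p 0.204). It passed with trends on coding length and GC content removed (log2 fold change -0.24, adjusted p 0.0143), a setting chosen after seeing the data.

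Both antizyme genes were higher. OAZ2 (ENST00000326005.10, chromosome 15, 64687573 to 64703281, 6 exons) was covered by 58, 83 and 63 footprints in sgCtrl against 105, 105 and 78 in sgN6AMT1. Its CPM were 29.0, 28.5 and 30.9 against 45.8, 45.1 and 42.1. The groups were well separated, with a log2 fold change of 0.60 and an SE of 0.14 (adjusted p 0.000283 in edgeR). OAZ1 (ENST00000602676.6, chromosome 19, 2269520 to 2273490, 6 exons) was covered by 309, 360 and 280 footprints in sgCtrl against 353, 410 and 352 in sgN6AMT1. In CPM these were 155, 124 and 138 against 154, 176 and 190. The highest sgCtrl library and the lowest sgN6AMT1 library of OAZ1 crossed, and the log2 fold change was 0.33 with an SE of 0.081 (adjusted p 0.000751 in edgeR). The longest run of bases that the OAZ1 and OAZ2 transcripts share was 27 bases, across the frameshift site printed above. Footprints there can be as short as this run, so those reads could be assigned to either gene.

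AZIN1, which resembles ODC1 but does not make putrescine, did not pass. AZIN1 (ENST00000347770.8, chromosome 8, 13 exons) was covered by 101, 138 and 120 footprints in sgCtrl against 150, 119 and 114 in sgN6AMT1, or 50.5, 47.4 and 58.9 against 65.4, 51.1 and 61.6 CPM. The groups overlapped, and the log2 fold change of 0.19 (SE 0.12, 95% interval -0.04 to 0.43) had an edgeR adjusted p of 0.239. Its estimate was close to that of ODC1, on fewer counts. The longest run shared by ODC1 and AZIN1 was 14 bases, shorter than a footprint.

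The breakdown enzymes had the lowest counts and the widest range of changes. SAT1 and SMOX entered the test through sgN6AMT1 only and PAOX through sgCtrl only, in each case the group where they were high. Their p-values and ranks are therefore descriptions and add no support of their own. SAT1 (ENST00000379270.4, chromosome X, 23783173 to 23786210, 6 exons), the rate-limiting acetyltransferase, was covered by 10, 14 and 4 footprints in sgCtrl against 26, 23 and 22 in sgN6AMT1. Its CPM were 5.00, 4.81 and 1.96 against 11.3, 9.88 and 11.9, so even the highest sgCtrl library was below the lowest sgN6AMT1 library. The log2 fold change was 1.44 with an SE of 0.32 (adjusted p 0.00018 in edgeR), and 0.989% of tested genes had a larger one. SMOX (ENST00000621355.4, chromosome 20, 4148779 to 4187746, 8 exons) was covered by 7, 19 and 7 footprints in sgCtrl against 20, 25 and 26 in sgN6AMT1. In CPM these were 3.50, 6.52 and 3.44 against 8.72, 10.7 and 14.0, again without overlap. SMOX rose by a log2 fold change of 1.21 with an SE of 0.31 (adjusted p 0.00129 in edgeR). PAOX (ENST00000278060.9, chromosome 10, 133379262 to 133391694, 7 exons), the peroxisomal oxidase of acetylated polyamines, was covered by 14, 15 and 17 footprints in sgCtrl against 7, 9 and 8 in sgN6AMT1. Its CPM of 7.0, 5.15 and 8.35 lay above the 3.05, 3.87 and 4.32 of sgN6AMT1, but the log2 fold change of -0.83 (SE 0.36) did not pass (edgeR adjusted p 0.0799). In 14 alternatives PAOX stayed negative and its adjusted p ran from 0.0527 to 0.344.

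**Figure D3:**
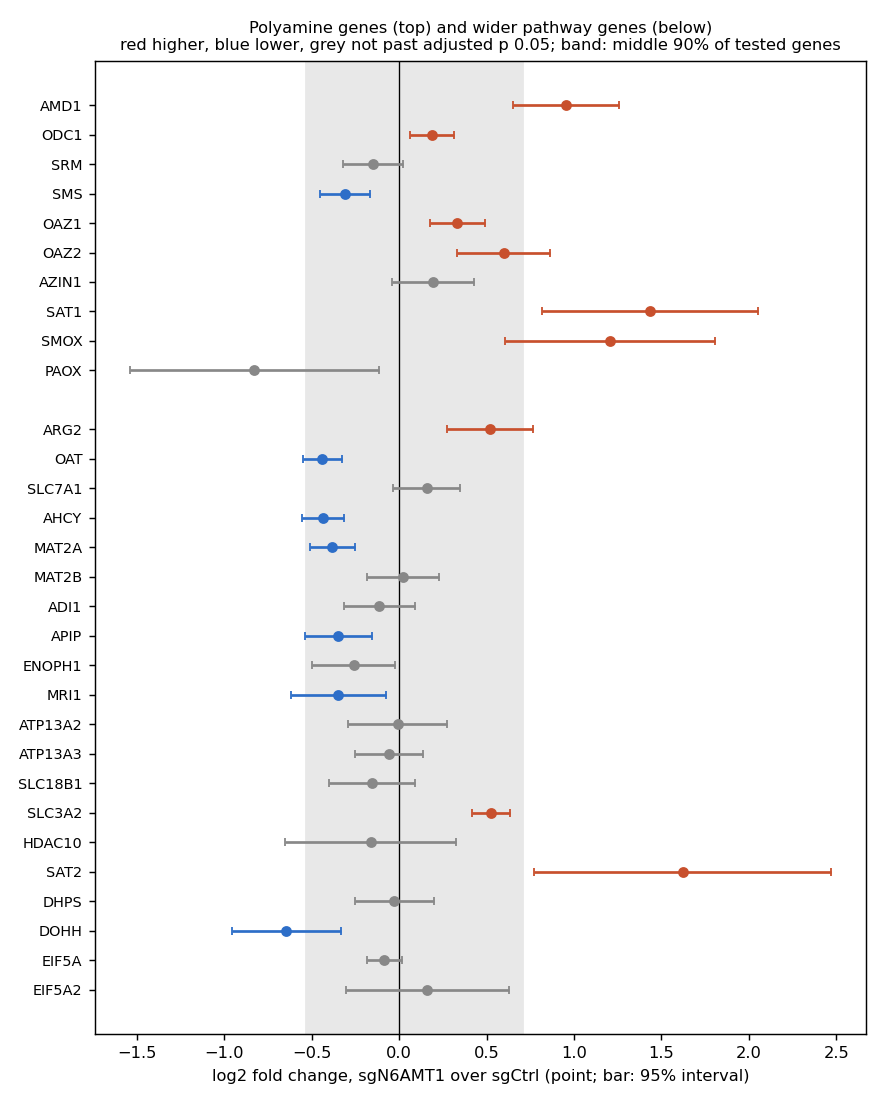
Log2 fold change of sgN6AMT1 over sgCtrl (x) with its 95% interval for the 10 polyamine genes (top) and 20 tested genes of the wider pathway (below). Red points are higher and blue points lower past an adjusted p of 0.05, grey points did not pass, and the grey band from -0.53 to 0.71 holds the middle 90% of tested genes. AMD1, SAT1, SMOX and SAT2 lie to the right of the band, and PAOX and DOHH to its left.

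Stop codons were compared next, since N6AMT1 acts on the factor that reads them. Averaged over transcripts, the study itself saw no change of ribosome occupancy at stop codons upon N6AMT1 depletion. The main stop codon was TGA in 5 of the 10 genes (AMD1, SMS, SRM, SAT1 and SMOX), TAG in 3 (ODC1, OAZ1 and PAOX) and TAA in 2 (OAZ2 and AZIN1). Among 8596 tested genes with an annotated stop the shares were 49.1%, 21.2% and 29.7%. Of the polyamine genes ending in TGA, AMD1, SAT1 and SMOX were higher, SMS was lower and SRM did not pass. SAT1 and SMOX had reached the filter on low counts through sgN6AMT1 only, and AMD1 was the only higher one of the others. Of all tested genes ending in TGA, 12.3% were higher and 12.5% lower, with 14.1% and 13.4% for TAG and 13.2% and 16.3% for TAA. Of all tested genes with an upstream ORF 13.3% were higher and 10.7% lower, and of those without one 12.8% were higher and 15.3% lower. Of the 5 polyamine genes with an upstream ORF, AMD1, ODC1, OAZ2 and SAT1 were higher and AZIN1 did not pass. Here too SAT1 had reached the filter through sgN6AMT1 only, and ODC1 passed the threshold in 10 of 15 alternatives. Of the 5 without an upstream ORF, OAZ1 and SMOX were higher, SMS was lower, and SRM and PAOX did not pass. SMOX had reached the filter through sgN6AMT1 only and PAOX through sgCtrl only. The shares given for stop codons and upstream ORFs are descriptions, and no difference between them was tested.

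Footprint density, in CPM per kilobase of coding sequence, kept nearly the same order of genes in both groups. In sgCtrl it ran from OAZ1 at 203 ± 22.7 through ODC1 at 174 ± 13.8, SMS at 170 ± 1.94 and SRM at 135 ± 6.92 (SD, n = 3 each). It continued with OAZ2 at 52.0 ± 2.26, AZIN1 at 38.9 ± 4.44 and AMD1 at 21.1 ± 5.36 CPM per kilobase (SD, n = 3 each). SAT1, PAOX and SMOX followed at 7.65 ± 3.32, 4.46 ± 1.05 and 2.56 ± 1.01 (SD, n = 3 each). Neighbours whose libraries overlapped were OAZ1 and ODC1, ODC1 and SMS, SAT1 and PAOX, and PAOX and SMOX. In sgN6AMT1 the density was 254 ± 26.7 for OAZ1, 199 ± 5.93 for ODC1, 137 ± 2.42 for SMS and 121 ± 9.75 for SRM (SD, n = 3 each). OAZ2 stood at 78.2 ± 3.44, AZIN1 at 44.2 ± 5.50 and AMD1 at 41.3 ± 2.77 CPM per kilobase (SD, n = 3 each), and only AZIN1 and AMD1 overlapped among neighbours. SAT1 followed at 21.5 ± 2.01, and SMOX at 6.36 ± 1.53 was above PAOX at 2.44 ± 0.42 (SD, n = 3 each), the reverse of their order in sgCtrl. AMD1, far below the synthases in sgCtrl, stayed the lowest of the synthetic enzymes in both groups.

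**Figure D4:**
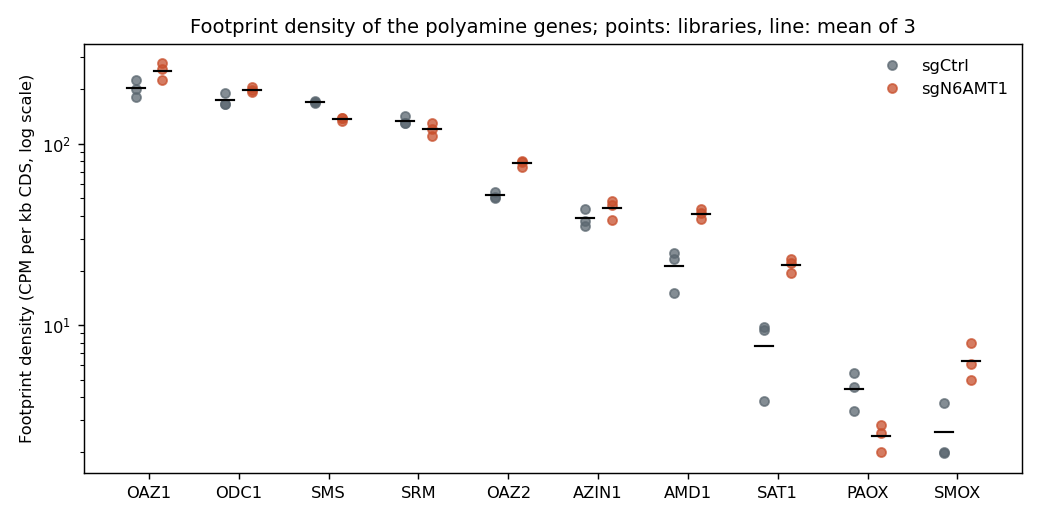
Footprint density in CPM per kilobase of coding sequence (y, log scale) for the polyamine genes, ordered by their sgCtrl mean (x). Points are libraries and lines are means of 3. Density falls from 203 for OAZ1 to 2.56 for SMOX in sgCtrl. The sgN6AMT1 points of AMD1, ODC1, OAZ2, SAT1 and SMOX lie above those of sgCtrl, and those of SMS, SRM and PAOX below.

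Ratios of counts within a library do not depend on scaling, and 4 of them were compared. The AMD1 to ODC1 ratio was 0.0651, 0.0888 and 0.109 in sgCtrl and 0.147, 0.161 and 0.143 in sgN6AMT1. The SAT1 to SRM ratio, of the acetyltransferase to the spermidine synthase, was 0.0388, 0.0407 and 0.0166 against 0.0963, 0.0987 and 0.108. Neither overlapped, and each had a 2-sided exact permutation p of 0.1, the smallest that 3 libraries against 3 allow (0.2 adjusted over the 4). The ODC1 to OAZ1 ratio was 1.49, 2.13 and 1.67 against 1.85, 1.55 and 1.41, with overlap (exact permutation p 0.6, adjusted 0.8). The AZIN1 to ODC1 ratio was 0.219, 0.180 and 0.257 against 0.230, 0.187 and 0.229 (exact permutation p 1, adjusted 1). Without sgCtrl replicate 2 the difference in ODC1 to OAZ1, which was -0.16, became 0.0227. That in AZIN1 to ODC1, -0.0031, became 0.016 without sgCtrl replicate 3 and 0.011 without sgN6AMT1 replicate 2.

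The wider pathway was described with a list of 31 genes, of which 20 had enough counts. Of these 20, 3 were higher and 6 lower, against 12.9% and 13.9% of all tested genes, with a median log2 fold change of -0.10. The counts of its branches, each of at most 4 tested genes, are descriptions to be read against the same shares. Of 3 tested genes for the supply of S-adenosylmethionine, 2 were lower. MAT2A, which makes it, was covered by 535, 859 and 541 footprints in sgCtrl against 512, 461 and 400 in sgN6AMT1 and fell by 0.38 in log2 units with an SE of 0.066 (adjusted p 1.69e-06 in edgeR). AHCY, which clears S-adenosylhomocysteine, was covered by 817, 1164 and 804 footprints against 627, 669 and 612 and fell by 0.44 in log2 units with an SE of 0.061 (adjusted p 5.7e-09 in edgeR). Neither overlapped between the groups in CPM, and MAT2B did not pass (log2 fold change 0.02).

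Methylthioadenosine, the by-product of SRM and SMS, is returned to methionine by a salvage route of which 4 genes were tested and 2 were lower. MTAP, its entry enzyme, had 0 counts of 13431376 in the 6 libraries, which allows up to 0.223 CPM, a limit of counting error only. The study reports that a large part of the genome, with the interferon gene locus, is missing from K562 cells. Whether MTAP is present in these cells was not tested, so the route may lack its entry step here. APIP fell by 0.35 in log2 units with an SE of 0.098 (adjusted p 0.00372 in edgeR), which was lost without sgN6AMT1 replicate 2 (adjusted p 0.0595). MRI1 had a log2 fold change of -0.35 (SE 0.14) at the threshold (edgeR adjusted p 0.0497) and passed in 4 of 15 alternatives, with adjusted p from 0.0121 to 0.275. ENOPH1 and ADI1 did not pass (log2 fold changes -0.26 and -0.11).

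Of 3 tested genes of arginine and ornithine metabolism, 1 was higher and 1 lower. ARG2, the mitochondrial arginase that yields ornithine, was covered by 77, 105 and 69 footprints in sgCtrl against 122, 113 and 100 in sgN6AMT1 and rose by a log2 fold change of 0.52 with an SE of 0.13 (adjusted p 0.000702 in edgeR). OAT, which turns ornithine toward glutamate and proline, was covered by 874, 1310 and 928 footprints against 775, 727 and 630 and fell by 0.44 in log2 units with an SE of 0.057 (adjusted p 8.16e-10 in edgeR). The arginine transporter SLC7A1 did not pass (log2 fold change 0.16). AGMAT had 0 counts and ARG1 had 1 count in all.

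In transport, SLC3A2, the heavy chain of amino acid transporters that has also been linked to polyamine export, rose from 409 ± 26.0 to 587 ± 13.3 CPM (SD, n = 3 each). Its log2 fold change was 0.52 with an SE of 0.055 (adjusted p 1.46e-13 in edgeR). The polyamine pumps ATP13A2 and ATP13A3 and the vesicular transporter SLC18B1 did not pass. SAT2, a relative of SAT1, was covered by 3, 6 and 4 footprints in sgCtrl against 15, 12 and 11 in sgN6AMT1, with a log2 fold change of 1.62 and an SE of 0.43 (adjusted p 0.00226 in edgeR). It reached the filter on low counts through sgN6AMT1 alone, and DESeq2 did not call it (adjusted p 0.0673). The longest run that SAT1 and SAT2 share was 11 bases, shorter than a footprint. HDAC10, the polyamine deacetylase, did not pass.

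Spermidine is also used to make hypusine, a residue found in the translation factor EIF5A. DOHH, which completes hypusine, was covered by 81, 90 and 76 footprints in sgCtrl against 45, 48 and 54 in sgN6AMT1 and fell by 0.65 in log2 units with an SE of 0.16 (adjusted p 0.000883 in edgeR). DHPS, which starts it, had a log2 fold change of -0.03 and did not pass. EIF5A itself, at 734 ± 28.7 and 691 ± 15.9 CPM (SD, n = 3 each), had a log2 fold change of -0.08 that did not pass (edgeR adjusted p 0.219). EIF5A2 did not pass (log2 fold change 0.16).

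Genes whose CPM followed AMD1 most closely over the 6 libraries were GABARAPL2, TMOD3 and YIPF4, with Pearson correlations of log2 CPM of 0.997, 0.995 and 0.991 among 3648 genes. For ODC1 they were TFPI, TRIM27 and HSPH1, at 0.990, 0.989 and 0.981. All of these points share the same libraries and the same 2 groups, and 205 genes reached a correlation above 0.9 with AMD1 and 78 with ODC1.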

How the data were processed

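Ribosome footprints were analysed in 3 sgCtrl and 3 sgN6AMT1 libraries. The deposited values are whole-number counts per transcript. According to the methods, the authors trimmed reads with cutadapt, kept footprint lengths, removed rRNA and tRNA reads after HISAT2 mapping to GRCh38, mapped the rest to canonical transcripts with bowtie2 and summed riboWaltz P-sites over each coding sequence. Counts over a gene annotation are also described, and the sources used here do not say which the table holds. No molecular identifiers are described, so counting intervals cover counting error only. Totals ran from 1821356 to 2969736.

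Counts were fitted with edgeR 4.0.16 in R 4.3.3 (filterByExpr at 10 counts, TMM factors, quasi-likelihood F test, 2-sided), with Benjamini-Hochberg adjustment over 9202 genes and a threshold of 0.05. CPM were taken over the TMM-adjusted total of all genes. SEs were derived from F, and 95% intervals assume a normal error. Transcripts were matched without version to GENCODE 44 on GRCh38 (91.5%). All of the count columns belonged to these libraries.

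The polyamine genes, the wider list and the tests were chosen with earlier results of these data known. The rule for naming genes covered the 10 polyamine genes, N6AMT1, wider-list genes past the threshold and the 3 closest to AMD1 and ODC1 above 50 CPM. Alternatives were DESeq2 1.42.0, limma-voom (limma 3.58.1), RLE and upper-quartile factors, library totals, no filter, a mean of 50 counts, a replicate block and leaving out each library. Removal of coding length and GC trends (loess, span 0.5) was added after seeing the data.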

Additional observations from a re-analysis of the deposited data

How the results depend on the processing

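AMD1, OAZ1, OAZ2, SMS, SAT1 and SMOX were called in the same direction by each of the 14 or 15 alternatives that tested them, as was N6AMT1 by 14. SAT1, SMOX and PAOX had too few counts for the filter at a mean of 50. ODC1 stayed positive in 15 and past the threshold in 10. SMS was the only lower polyamine gene except with coding length and GC trends removed, where SRM made 2. DESeq2 called 1329 genes in all, 588 higher and 741 lower, where edgeR called 2473, 1191 and 1282. Of the genes called, 51.8% were lower, but 38.5% with library totals only, which moved the median gene by 0.05 (log2). Library totals moved the density of SMS to 167 in sgCtrl and 140 CPM per kilobase in sgN6AMT1. In fits without 1 library, the difference in ODC1 to OAZ1 ran from -0.295 to 0.0227 and that in AZIN1 to ODC1 from -0.0224 to 0.016.

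The replicate numbers did not pair the libraries: correlations of same-numbered deviations were -0.14, 0.036 and 0.0033, and 1 of 6 libraries correlated best with its own number. With the replicate block 2390 genes were called, and all 7 polyamine calls among 10 were made, while MRI1 was not called (adjusted p 0.0581). Counts of 4 to 26 on SAT1, SMOX and PAOX limit their precision.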
